A study of Bos taurus with 6 samples.

Results

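The expression of 10 genes of the leukemia inhibitory factor (LIF) receptor, JAK and STAT3 pathway was examined in bovine embryonic stem cells, out of 19163 genes in the deposited count table. The genes were chosen by name and role: the ligand LIF, the receptor chains LIFR and IL6ST, the kinases JAK1, JAK2 and TYK2, the transcription factors STAT3 and STAT5A, and the inhibitors SOCS2 and SOCS3. The cells were of the F7 line, a single line of Holstein Friesian embryonic stem cells (bESCs) established from in vitro fertilized embryos. MC-F7 cells were grown on C57 mouse embryonic fibroblasts arrested with mitomycin C (named 1M in the labels), and MT-F7 cells were grown on fibroblasts of the same kind killed and fixed with methanol. Each group had 3 libraries, and the labelled experiment gives 15 passages on each feeder layer. The medium of both groups held recombinant human FGF and the WNT pathway inhibitor IWR1, and LIF is not among the additions that the methods name. It was renewed daily for MC-F7 cells and every other day for MT-F7 cells, so the feeder layer and the feeding interval cannot be told apart. Before RNA extraction the dissociated cells stood briefly on gelatin, and the floating cells were collected.

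LIF is a cytokine of the interleukin 6 family. It binds LIFR, which pairs with the signal chain IL6ST (gp130), and the JAK kinases held on these chains then phosphorylate STAT3. Phosphorylated STAT3 enters the nucleus and activates, among others, SOCS3, whose protein inhibits the same receptor complex. In mouse embryonic stem cells, LIF and STAT3 sustain the naive pluripotent state, and living fibroblast feeders are a known source of LIF. Much of this pathway works by phosphorylation, which RNA-seq does not measure.

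The libraries held 21958386 to 24933430 reads assigned to genes, and 3 counts, the smallest amount taken as detected, were 0.12 to 0.137 counts per 1000000 counts (CPM). Such limits cover counting error only. No source used here says that the replicates were grown as separate cultures, so the SDs and p values cover the spread between these libraries, which may be technical. The study describes its data in general as means over 3 or more technical replicates, without naming the RNA-seq libraries. The comparison of MT-F7 with MC-F7 cells was made with edgeR's quasi-likelihood test on 13001 genes, and an adjusted p under 0.05 was called. A positive log2 fold change is a higher level in MT-F7 cells. In these bulk samples, fewer cells of a type and less RNA per cell cannot be told apart. Of 6 pluripotency markers in the table, 5 fell in MT-F7 cells, and their summed level was 945 to 1576 CPM in the MC-F7 libraries and 579.7 to 628 CPM in the MT-F7 libraries. POU5F1 made up most of this level, with means of 1196 CPM in MC-F7 and 522 CPM in MT-F7 cells. The marker that did not fall was SALL4, with 37.3 CPM in MC-F7 and 47.0 CPM in MT-F7 cells (log2 fold change 0.33, not called). The listed pluripotency markers SOX2 and UTF1 were not analysed here. Of 12 fibroblast markers, 4 rose (COL3A1, POSTN, PDGFRB and FBLN1) and none fell, with a summed level of 371 to 486 CPM in MC-F7 and 707 to 838 CPM in MT-F7 libraries. COL1A1, which was not called, and FBLN1 made up most of this sum. Their means were 205 and 108 CPM in MC-F7 and 268 and 327 CPM in MT-F7 cells. The study reported that a larger share of reads aligned to the bovine genome in MT-F7 than in MC-F7 cells. From this the study proposes less feeder cell contamination on the fixed layer. Leukocyte markers summed to 4.25 to 5.71 CPM and 3.44 to 4.93 CPM, and hypoblast markers, with GATA4 at 0, to 5.71 to 7.67 CPM and 1.70 to 2.42 CPM. In each of these lists 1 of the 2 tested genes fell, SPI1 and FOXA2. Trophectoderm markers, with CDX2 at 0, summed to 1827 to 2831 CPM in MC-F7 and 679 to 792 CPM in MT-F7 libraries, and 2 of the 3 tested, KRT8 and KRT18, fell. These 2 keratin genes made up nearly all of the sum, with mean levels of 1431 and 859 CPM in MC-F7 and 554 and 193 CPM in MT-F7 cells. The other tested gene, TFAP2C, was 1.22 CPM in MC-F7 and 1.21 CPM in MT-F7 cells and was not called. Neural ectoderm markers summed to 299.9 to 352 CPM in MC-F7 and 478 to 554 CPM in MT-F7 libraries, and 2 of the 4 tested, PAX6 and RAX, rose (edgeR, log2 fold changes 2.92 and 2.98). NES, which was not called, made up most of this sum, with 312 CPM and 412 CPM. The part of these other cell types and of feeder RNA in the results given here was not tested.

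Of the 10 genes, 8 passed the filter on low counts and 3 of these were called (37.5%), where 23.2% of all tested genes were called. SOCS2 rose in MT-F7 cells (11.9% of all tested genes rose), and JAK1 and IL6ST fell (11.3% fell). The groups did not overlap in 5 of the 8 genes (62.5%), against 40.0% of all tested genes. In STAT3, SOCS2 and SOCS3 all MT-F7 libraries lay above all MC-F7 libraries (19.9% of all tested genes), and in IL6ST and JAK1 they lay below (20.1%). An unadjusted p under 0.05 was reached by 5 of the 8 genes and by 35.8% of all tested genes, and DESeq2 called 4 of the 8 genes and 26.1% of all. Of the 8 tested genes, 4 had a higher and 4 a lower mean estimate in MT-F7 cells, with a median log2 fold change of 0.13.

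**Figure D1:**
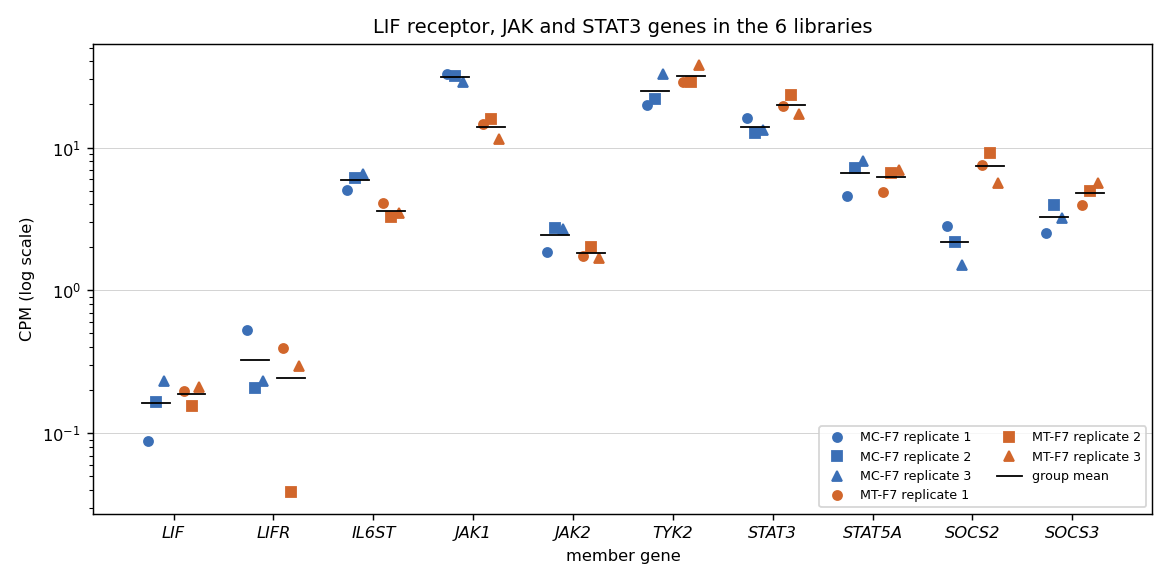
CPM of the 10 pathway genes in each library on a log axis, with MC-F7 libraries in blue, MT-F7 libraries in orange, a symbol shape for each replicate number and a black bar at each group mean. SOCS2 lies higher and JAK1 lower in all 3 MT-F7 libraries, and LIF and LIFR stay under 1 CPM in every library.

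The transcripts of the ligand and its own receptor chain were near the limit of detection in both groups. LIF (Entrez 280840) was counted 2, 4 and 5 times in MC-F7 libraries and 5, 4 and 5 times in MT-F7 libraries, which is 0.163 CPM ± 0.0727 and 0.189 CPM ± 0.0303 (SD, n = 3). LIFR (Entrez 539504) was counted 12, 5 and 5 times in MC-F7 libraries and 10, 1 and 7 times in MT-F7 libraries, or 0.324 CPM ± 0.180 and 0.245 CPM ± 0.186 (SD, n = 3). The groups overlapped for each gene, and neither passed the filter on low counts. When all genes with at least 1 count were fitted, the log2 fold change of LIF was 0.21 with a 95% interval from -1.78 to 2.21 (edgeR, adjusted p = 0.90). That of LIFR was -0.40 with an interval from -2.19 to 1.40 (adjusted p = 0.79). No change of LIF or LIFR was detected, and the intervals are wide at this depth.

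IL6ST (Entrez 522155), the chain that all receptors of the family share, fell 1.63-fold in MT-F7 cells. It was 5.04, 6.14 and 6.50 CPM in the MC-F7 libraries and 4.10, 3.28 and 3.48 CPM in the MT-F7 libraries. All MT-F7 values lay below the lowest MC-F7 value. The means were 5.89 CPM ± 0.758 and 3.62 CPM ± 0.428 (SD, n = 3), and the log2 fold change was -0.70 (SE 0.228, 95% interval -1.19 to -0.21, edgeR adjusted p = 0.041). This call was lost in 5 of the 6 fits that left out a library, with adjusted p values of 0.136 without MC-F7 replicate 2, 0.0977 without MC-F7 replicate 3, 0.0689, 0.135 and 0.0736 without MT-F7 replicates 1, 2 and 3, and it remained without MC-F7 replicate 1 (0.0348). It was also lost in the TPM values with limma, with log2 differences of -0.10 on log2(TPM + 1), -0.39 on log2(TPM + 0.1) and -0.36 on rescaled TPM (adjusted p = 0.079, 0.144 and 0.132). The log2 fold change stayed between -0.81 and -0.63 in the fits that left out a library.

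CNTFR, IL11RA and IL27RA, which bind other cytokines of the family, rose in MT-F7 cells. Of the 7 tested genes in the list of receptor chains, 3 rose and 1 fell (11.9% and 11.3% of all tested genes), with a median log2 fold change of 0.60 against -0.0026 over all tested genes. CNTFR, the receptor of ciliary neurotrophic factor, was 53.5, 42.5 and 37.2 CPM in MC-F7 and 121, 129 and 137 CPM in MT-F7 libraries. Every MT-F7 library had more CNTFR than every MC-F7 library, and the log2 fold change was 1.54 (SE 0.166, edgeR adjusted p = 3.4e-05). IL11RA, the interleukin 11 receptor, rose from 26.5 CPM ± 1.71 to 48.9 CPM ± 4.35 (SD, n = 3; log2 fold change 0.89, edgeR adjusted p = 0.0011). IL27RA, a chain of the interleukin 27 receptor, rose from 42.2 CPM ± 3.08 to 64.4 CPM ± 4.53 (SD, n = 3; log2 fold change 0.61, edgeR adjusted p = 0.0090), and this call was lost without MT-F7 replicate 1 (0.056). The interleukin 6 receptor IL6R (log2 fold change 0.60, edgeR adjusted p = 0.099) and the erythropoietin receptor EPOR (-0.65, adjusted p = 0.079) were not called. The fibroblast and neural ectoderm marker sums were also higher in the MT-F7 libraries, and the pluripotency sum was lower. The part of any of these in the rises was not tested.

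Among the ligands, none of the 4 tested genes was called by edgeR, DESeq2 or limma, and 1, CTF1 (cardiotrophin 1), had an unadjusted p under 0.05. The ligand with the most counts was CLCF1, which signals through CNTFR. It was 35.3, 38.1 and 58.2 CPM in MC-F7 and 40.4, 37.4 and 64.3 CPM in MT-F7 libraries. The groups overlapped, with replicate 3 highest in each, and the log2 fold change was 0.11 (SE 0.235, edgeR adjusted p = 0.78). CTF1 was 2.12 CPM ± 0.604 in MC-F7 and 3.29 CPM ± 0.290 in MT-F7 cells (SD, n = 3; edgeR adjusted p = 0.14). OSM was at 0 in all libraries, and IL11 and OSMR were not analysed here.

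**Figure D2:**
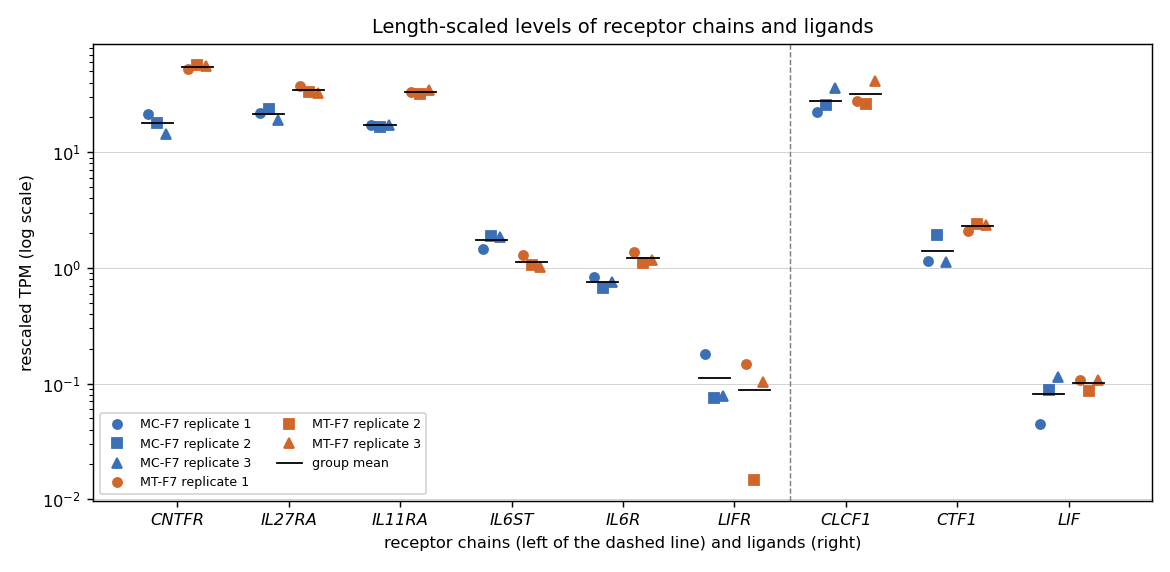
Level per gene length (deposited TPM values rescaled to 1000000 per library, log axis) of 6 receptor chains and 3 ligands, with MC-F7 libraries in blue, MT-F7 libraries in orange and a black bar at each group mean. CNTFR, IL27RA and IL11RA lie above 10 in every library and are higher in MT-F7, while IL6ST is between 1.03 and 1.88 and LIFR and LIF are under 0.2.

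Per gene length, the shared chain was a small part of the receptor transcripts. The level used here is the deposited TPM value rescaled to 1000000 in each library. On this scale CNTFR was 17.8 ± 3.45 in MC-F7 and 54.9 ± 2.53 in MT-F7 cells, and IL6ST was 1.73 ± 0.226 and 1.13 ± 0.141 (SD, n = 3). The summed level of LIFR, IL6ST, IL6R, IL11RA, CNTFR and IL27RA was 58.9 ± 5.01 in MC-F7 and 125.05 ± 0.578 in MT-F7 cells. IL6ST made up 2.97% ± 0.576 of this sum in MC-F7 and 0.899% ± 0.109 in MT-F7 cells, and CNTFR made up 30.1% ± 3.45 and 43.9% ± 2.22 (SD, n = 3). All MT-F7 shares of IL6ST lay below all MC-F7 shares. The same held for LIFR, IL6R and IL27RA, although IL27RA itself was higher in MT-F7 cells (21.4 ± 2.30 and 34.5 ± 2.57; SD, n = 3). Because the sum was larger in MT-F7 cells, a lower share is not by itself a lower level of the gene.

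JAK1, the kinase that binds IL6ST and is needed for signals of this family, fell 2.23-fold in MT-F7 cells. JAK1 (Entrez 537201) was 32.9, 31.6 and 28.9 CPM in the MC-F7 libraries and 14.7, 15.8 and 11.4 CPM in the MT-F7 libraries. The highest MT-F7 value was well below the lowest MC-F7 value. The log2 fold change was -1.16 (SE 0.171, 95% interval -1.53 to -0.78, edgeR adjusted p = 3.9e-04), and JAK1 was called in all 16 alternatives across genes. Its size depended on the scale, since limma on log2(TPM + 1) gave -0.48, a scale that understates the change of low genes.

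The other kinases were not called, and their intervals include changes of either sign. JAK2 (Entrez 525246) was 1.86, 2.74 and 2.71 CPM in MC-F7 and 1.75, 2.01 and 1.70 CPM in MT-F7 libraries. The groups overlapped because MC-F7 replicate 1 was within the MT-F7 range, and the log2 fold change was -0.42 (SE 0.302, 95% interval -1.07 to 0.24, edgeR adjusted p = 0.35). TYK2 (Entrez 512484) was 19.9, 21.7 and 32.5 CPM in MC-F7 and 28.7, 28.6 and 37.6 CPM in MT-F7 libraries. Replicate 3 was the highest of each group, and MC-F7 replicate 3 lay above 2 MT-F7 libraries. Replicate 3 was also the library with the largest share of mitochondrial counts in each group (28.3% and 27.9%), whose part in these values was not tested. The log2 fold change of TYK2 was 0.36 (SE 0.204, 95% interval -0.09 to 0.80, edgeR adjusted p = 0.23), and without MC-F7 replicate 3 it was 0.60 and called (adjusted p = 0.031). JAK3, which pairs with other cytokine receptors, was 10.01 CPM ± 1.62 and 7.91 CPM ± 1.58 (SD, n = 3; log2 fold change -0.34, edgeR adjusted p = 0.28).

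JAK1 made up less and TYK2 more of the JAK transcripts in MT-F7 libraries, a description with no test. Per gene length, JAK1 made up 54.1%, 50.1% and 40.2% of the summed level of the 4 kinases in the MC-F7 libraries and 30.6%, 31.2% and 20.6% in the MT-F7 libraries. TYK2 made up 28.6%, 30.1% and 39.5% in MC-F7 against 52.2%, 49.4% and 59.2% in MT-F7 libraries. JAK1 held the larger share in all MC-F7 libraries and TYK2 in all MT-F7 libraries, with MC-F7 replicate 3 nearly even. The shares of JAK2 (4.52% ± 0.779 and 4.33% ± 0.562) and JAK3 (14.6% ± 1.06 and 14.6% ± 1.85; SD, n = 3) overlapped. The summed level of the 4 kinases was 16.7 ± 1.16 in MC-F7 and 13.9 ± 0.646 in MT-F7 cells.

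STAT3 (Entrez 508541), the main transcription factor of LIF signals, was 16.1, 12.6 and 13.3 CPM in MC-F7 and 19.4, 23.1 and 17.2 CPM in MT-F7 libraries. The groups did not overlap, but MC-F7 replicate 1 and MT-F7 replicate 3 were close. The log2 fold change was 0.50 (SE 0.180, 95% interval 0.12 to 0.89), and STAT3 was not called (edgeR, unadjusted p = 0.015, adjusted p = 0.060). It was called by DESeq2 (adjusted p = 0.046), without MC-F7 replicate 1 (0.044) and without MT-F7 replicate 3 (0.030). The study reports STAT3 as significantly higher in MT-F7 cells from the same RNA-seq samples. Its stated threshold was a P value under 0.05, whereas a call here required an adjusted p under 0.05. STAT5A (Entrez 282375), which serves growth hormone and prolactin receptors among others, was 4.6, 7.17 and 8.04 CPM in MC-F7 and 4.86, 6.64 and 7.01 CPM in MT-F7 libraries. The groups overlapped, with replicate 1 lowest in each, and the log2 fold change was -0.10 (SE 0.250, 95% interval -0.64 to 0.44, edgeR adjusted p = 0.82).

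None of the other STAT genes described here was called by edgeR, DESeq2 or limma on log2(TPM + 1), and 1 of them, STAT2, had an unadjusted p under 0.05. STAT2, which acts in the interferon response, was 7.41 CPM ± 3.10 and 11.6 CPM ± 2.48 (SD, n = 3; log2 fold change 0.64, edgeR adjusted p = 0.12), and it was called without MC-F7 replicate 3 (log2 fold change 0.98, adjusted p = 0.017). The log2 fold changes of STAT4, STAT5B and STAT6 were -0.09, 0.23 and 0.30, with adjusted p values of 0.91, 0.47 and 0.35 (edgeR). STAT5B, STAT5A and STAT3 are consecutive genes on chromosome 19 of the RefSeq annotation of ARS-UCD2.0. STAT5A and STAT5B are near-identical copies, so their reads may have been divided unevenly and their separate values are uncertain.

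**Figure D3:**
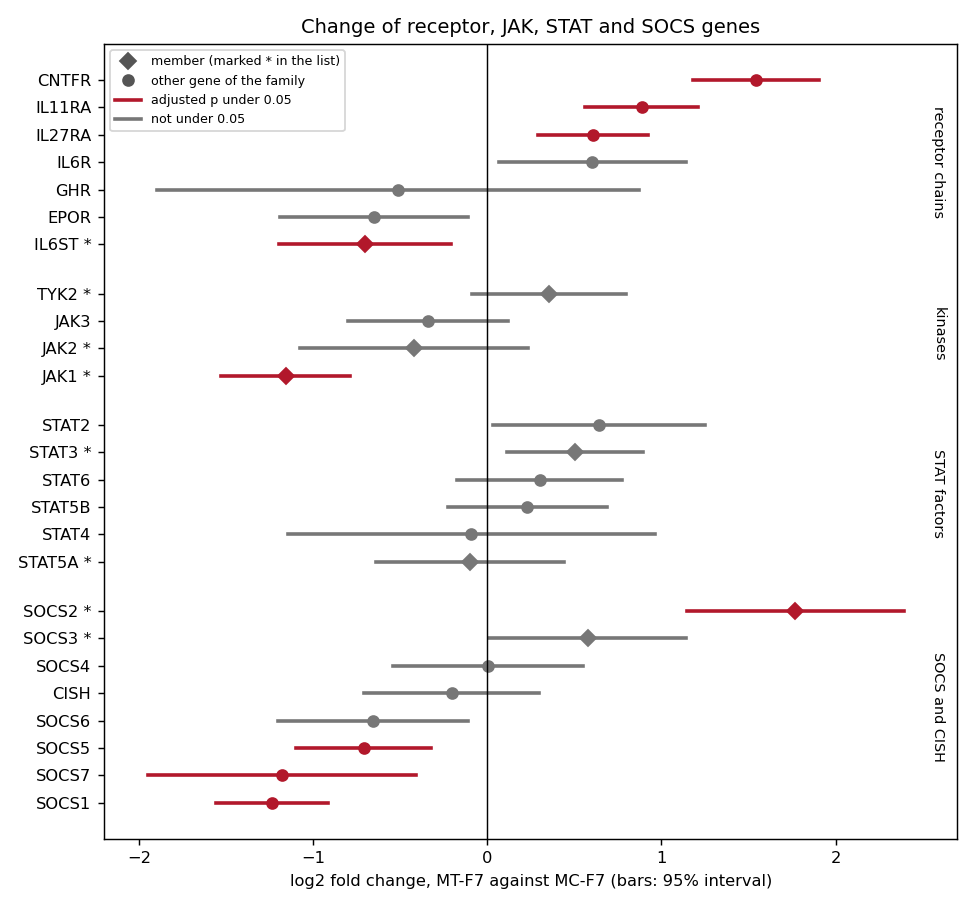
Log2 fold change of MT-F7 against MC-F7 cells with its 95% interval for receptor chains, kinases, STAT factors and SOCS genes, where diamonds mark the pathway genes of this report, circles mark other genes of each family, and red marks an adjusted p under 0.05. JAK1 and SOCS1 lie left of 0 and CNTFR and SOCS2 right of 0, while the STAT intervals shown are grey.

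SOCS2 had the largest change of the 8 tested genes. Its protein limits growth hormone and STAT5 signals, and SOCS2 transcription is itself induced by STAT5. SOCS2 (Entrez 338437) was 2.83, 2.20 and 1.5 CPM in the MC-F7 libraries and 7.49, 9.19 and 5.60 CPM in the MT-F7 libraries. The lowest MT-F7 value was above the highest MC-F7 value. SOCS2 rose 3.41-fold, with a log2 fold change of 1.77 (SE 0.288, 95% interval 1.15 to 2.39, edgeR adjusted p = 7.7e-04), and it was called in all 16 alternatives. With limma on log2(TPM + 1) the difference was 0.41. The study lists SOCS2 among genes chosen on these same samples, so its direction here is no independent evidence.

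SOCS3 (Entrez 282081), the STAT3-induced inhibitor of IL6ST and JAK, was 2.52, 3.98 and 3.23 CPM in MC-F7 and 3.98, 4.94 and 5.60 CPM in MT-F7 libraries. The groups were barely apart, as MC-F7 replicate 2 and MT-F7 replicate 1 had nearly the same value. The log2 fold change was 0.58 (SE 0.260, 95% interval 0.01 to 1.14, edgeR adjusted p = 0.13, unadjusted p = 0.046), and SOCS3 was called in 0 of the 16 alternatives.

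Of the 8 SOCS and CISH genes, 1 rose and 3 fell (11.9% and 11.3% of all tested genes), with a median log2 fold change of -0.43. SOCS1, which blocks JAK kinases directly and is induced by interferon, was 54.5, 53.4 and 52.8 CPM in MC-F7 and 23.6, 24.3 and 20.4 CPM in MT-F7 libraries. The MC-F7 libraries were close together and the MT-F7 libraries all far below them. SOCS1 fell 2.35-fold (log2 fold change -1.23, SE 0.149, edgeR adjusted p = 8.6e-05) and was called in all 16 alternatives. SOCS5 fell from 11.3 CPM ± 0.890 to 6.94 CPM ± 0.212 (SD, n = 3; log2 fold change -0.71, edgeR adjusted p = 0.012), and the call was lost without MC-F7 replicate 2 (0.060). The call of SOCS5 was also lost with limma on log2(TPM + 1) (adjusted p = 0.070) and on log2(TPM + 0.1) (0.088). SOCS7 fell from 2.14 CPM ± 0.456 to 0.944 CPM ± 0.175 (SD, n = 3; log2 fold change -1.18, edgeR adjusted p = 0.030). The call of SOCS7 was lost without MC-F7 replicate 2 (0.135) or 3 (0.0586) and without MT-F7 replicate 1 (0.0996) or 2 (0.0945). SOCS6 (log2 fold change -0.65, edgeR adjusted p = 0.080), CISH (-0.20, adjusted p = 0.57) and SOCS4 (0.01, adjusted p = 0.99) were not called, and SOCS6 was called without MC-F7 replicate 1 (0.045) or MT-F7 replicate 3 (0.010).

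Per gene length, SOCS1 was the most abundant gene of its family in both groups. The summed SOCS and CISH level was 136.5 ± 5.25 in MC-F7 and 78.1 ± 5.64 in MT-F7 cells (SD, n = 3). SOCS1 made up 76.1% ± 2.29 of it in MC-F7 and 59.9% ± 5.28 in MT-F7 cells. SOCS3 made up 3.49%, 5.42% and 4.35% in the MC-F7 libraries and 10.4%, 12.0% and 14.2% in the MT-F7 libraries, and SOCS2 made up 0.642% ± 0.205 and 4.04% ± 0.885 (SD, n = 3). The shares of these 3 genes did not overlap between the groups. The same held for SOCS4 (2.16% ± 0.267 and 3.99% ± 1.02) and CISH (1.78% ± 0.260 and 2.87% ± 0.394; SD, n = 3), which were not called. Each share depends on the whole sum, most of which was SOCS1, so a larger share is not by itself a rise of the gene.

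**Figure D4:**
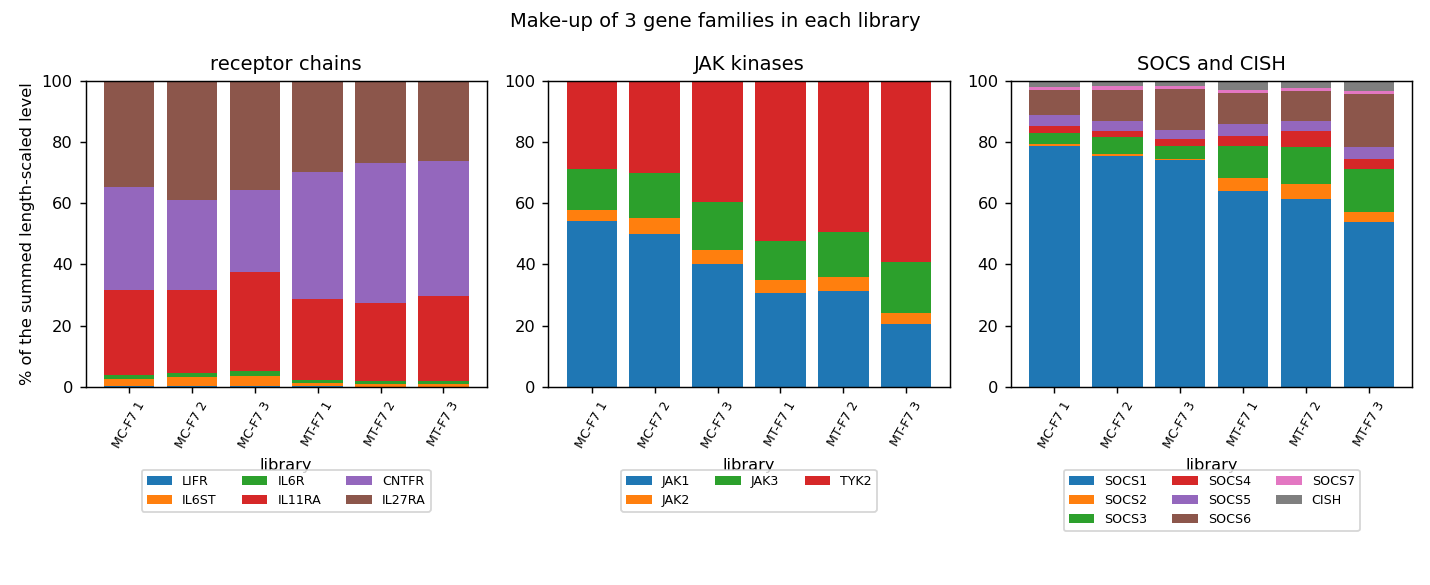
Stacked bars of the share (% of the summed level per gene length) that each gene takes of 6 receptor chains, 4 JAK kinases and 8 SOCS and CISH genes, with 1 bar for each of the 3 MC-F7 and 3 MT-F7 libraries. JAK1 takes 40.2% to 54.1% of the kinases in MC-F7 and 20.6% to 31.2% in MT-F7, and SOCS1 takes the largest share of its family in every library.

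The order of the 10 genes by level per gene length differed between the groups at the top, with no test of the order. In MC-F7 cells JAK1 was highest (8.0 ± 0.729), followed by SOCS3 (6.06 ± 1.55), TYK2 (5.52 ± 1.35), STAT3 (3.92 ± 0.491), STAT5A (2.17 ± 0.581), IL6ST (1.73 ± 0.226), SOCS2 (0.876 ± 0.277), JAK2 (0.761 ± 0.165), LIFR (0.111 ± 0.0608) and LIF (0.0817 ± 0.0351; SD, n = 3). Of the 9 pairs of neighbours in this order, 3 did not overlap: STAT3 over STAT5A, IL6ST over SOCS2, and JAK2 over LIFR. In MT-F7 cells the order was SOCS3 (9.51 ± 1.39), TYK2 (7.47 ± 0.874), STAT3 (5.92 ± 1.15), JAK1 (3.81 ± 0.781), SOCS2 (3.18 ± 0.901), STAT5A (2.14 ± 0.378), IL6ST (1.13 ± 0.141), JAK2 (0.602 ± 0.0801), LIF (0.10 ± 0.0125) and LIFR (0.0880 ± 0.0672; SD, n = 3). In this order 4 pairs of neighbours did not overlap: STAT3 over JAK1, STAT5A over IL6ST, IL6ST over JAK2, and JAK2 over LIF. JAK1 thus went from the first to the fourth place, and SOCS2 from the seventh to the fifth.

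A ratio of 2 genes within a library does not depend on its size, and 4 such ratios of counts were compared by exact two-sided permutation tests, which cannot give a p below 0.1 with 3 libraries against 3. The ratio of JAK2 to JAK1 was 0.0565, 0.0865 and 0.0939 in MC-F7 against 0.119, 0.127 and 0.149 in MT-F7 libraries. All MT-F7 ratios were above all MC-F7 ratios, by 0.77 on the log2 scale (exact permutation p = 0.1, adjusted over the 4 ratios 0.4). The ratio of SOCS2 to SOCS3 was 1.12, 0.552 and 0.464 in MC-F7 against 1.88, 1.86 and 1.00 in MT-F7 libraries, which overlapped (difference 1.2 on the log2 scale, exact permutation p = 0.2, adjusted 0.4). Between STAT5A and STAT3 the log2 ratio differed by -0.58 (exact permutation p = 0.3, adjusted 0.4). Between LIFR and IL6ST it differed by -0.13 (exact permutation p = 0.8, adjusted 0.8), a value that rests on 1 to 12 counts of LIFR in a library and became 0.40 without MC-F7 replicate 1 and 0.85 without MT-F7 replicate 2.

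Among 8 tested genes of the PIAS and phosphatase list, 1 rose and none fell (11.9% and 11.3% of all tested genes). It was PTPN6, which encodes SHP-1, a phosphatase that acts on JAK kinases. It was 17.0, 15.2 and 15.6 CPM in MC-F7 and 30.6, 40.7 and 38.9 CPM in MT-F7 libraries, all higher in MT-F7 (log2 fold change 1.2, SE 0.166, edgeR adjusted p = 2.3e-04). Of 8 genes for adaptors of the ERK and PI3K branches, 2 rose and 1 fell, against the same shares of all tested genes. SHC1 rose from 194 CPM ± 10.2 to 293 CPM ± 8.40 (SD, n = 3; log2 fold change 0.60, edgeR adjusted p = 0.0082, and 0.054 without MC-F7 replicate 2). PIK3R1, the regulatory subunit of PI3 kinase, rose from 4.93 CPM ± 0.520 to 10.2 CPM ± 0.429 (SD, n = 3; log2 fold change 1.04, edgeR adjusted p = 0.0019). PIK3CB, a catalytic subunit, fell from 24.7 CPM ± 6.07 to 15.7 CPM ± 1.27 (SD, n = 3; log2 fold change -0.66, edgeR adjusted p = 0.027), and this call was lost without MC-F7 replicate 2 (0.101) or 3 (0.0835) and without MT-F7 replicate 1 (0.108) or 2 (0.0560). In all, PIK3CB was called in 9 of the 16 alternatives.

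Genes known as STAT3 targets changed in both directions. Of 14 tested, 2 rose and 4 fell (11.9% and 11.3% of all tested genes), with a median log2 fold change of -0.21. FOS, an immediate early transcription factor with many other inputs, was 10.9, 15.9 and 19.2 CPM in MC-F7 and 77.4, 66.2 and 100.04 CPM in MT-F7 libraries. FOS rose 5.31-fold (log2 fold change 2.41, SE 0.225, edgeR adjusted p = 1.0e-05), and the groups were far apart. PIM1, a kinase gene that STAT3 and STAT5 induce, was 62.3, 61.9 and 46.8 CPM in MC-F7 and 22.8, 19.2 and 19.5 CPM in MT-F7 libraries. PIM1 fell 2.78-fold (log2 fold change -1.47, SE 0.169, edgeR adjusted p = 5.3e-05), with all MT-F7 libraries lower. CEBPD fell from 79.9 CPM ± 3.82 to 45.0 CPM ± 5.86 (SD, n = 3; log2 fold change -0.83, edgeR adjusted p = 0.0018). GBX2, a LIF-responsive homeobox gene of mouse stem cells, fell from 1.71 CPM ± 0.310 to 0.362 CPM ± 0.0379 (SD, n = 3; log2 fold change -2.22, edgeR adjusted p = 0.0020). KLF4 and KLF5 were not called (log2 fold changes -1.14 and -0.11, edgeR adjusted p = 0.21 and 0.75), and TFCP2L1 and BCL3 did not pass the filter. The study reports KLF5 as higher in MT-F7 cells, both from the same RNA-seq samples and by RT-PCR.

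Of 5 tested STAT5 target genes, SOCS2 rose and PIM1 fell, and CISH, the classical STAT5 target, was not called. Of 7 tested interferon target genes, 2 rose and 2 fell, where 23.2% of all tested genes were called. The same background applies to the STAT5 targets. IRF1, an interferon-induced transcription factor, was 13.2, 12.7 and 13.3 CPM in MC-F7 and 2.79, 2.36 and 2.80 CPM in MT-F7 libraries. IRF1 fell 4.94-fold in MT-F7 cells (log2 fold change -2.30, SE 0.198, edgeR adjusted p = 5.8e-06), and its replicates were close together. IRF7 fell from 19.2 CPM ± 1.65 to 7.32 CPM ± 1.06 (SD, n = 3; log2 fold change -1.39, edgeR adjusted p = 1.55e-04). ISG15 rose from 0.770 CPM ± 0.166 to 2.80 CPM ± 1.01 (SD, n = 3; log2 fold change 1.86, edgeR adjusted p = 0.0044), and OAS1Y from 0.770 CPM ± 0.201 to 3.22 CPM ± 0.295 (log2 fold change 2.05, edgeR adjusted p = 7.1e-04). OAS1Y has close paralogs, so its reads may be shared with them. Over all lists together, 23 of 68 tested genes were called (33.8%, against 23.2% of all tested genes), 11 higher and 12 lower. Without the pathway genes of this report, 20 of 60 were called (33.3%), 10 in each direction.

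For the 2 pathway genes with the smallest adjusted p, JAK1 and SOCS2, the genes with the nearest pattern over the 6 libraries were found by the Euclidean distance of log2 CPM centred on each gene's mean. For JAK1, whose own distance from its mean was 1.47, they were CYYR1 (distance 0.138), CA5B (0.170) and RBPMS (0.181). Of these, RBPMS was the most abundant, with 411 CPM in MC-F7 and 192 CPM in MT-F7 cells. For SOCS2, whose own distance was 2.29, they were HESX1 (0.209), ACTA2 (0.345) and LXN (0.358). HESX1 was 47.2 CPM in MC-F7 and 147 CPM in MT-F7 cells, and ACTA2 was 85.3 CPM and 309 CPM. The points of such a pattern share their libraries and depth.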

How the data were processed

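RNA-seq data of 3 MC-F7 and 3 MT-F7 libraries were used. The authors filtered the reads, aligned them with HISAT2 2.0.5 and counted them with featureCounts 1.5.0-p3 per the labels, and deposited raw counts per Entrez gene. The genome build is not given in the sources used here, so no coordinates are given, and gene names and neighbours come from the RefSeq table of ARS-UCD2.0, where 89 genes of the count table had no symbol. The authors also deposited TPM values, whose sums per library were 154763 to 164394. Their ratio to the counts was equal over libraries within 0.1% in 9710 of 9740 genes that reached 50 counts throughout, so they were rescaled to 1000000 per library for levels between genes.

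Counts were filtered with filterByExpr (minimum count 10, minimum total count 15), normalized by TMM (factors 0.971 to 1.04) and tested with edgeR 4.0.16 under R 4.3.3 by a two-sided quasi-likelihood test with the group alone in the design and Benjamini-Hochberg adjustment over all 13001 tested genes. SE and 95% intervals come from the same fit. The scripts were tested on simulated data. Alternatives were RLE factors, DESeq2 1.42.0, other filters, a replicate block, leaving out each library in turn, the genes of the mitochondrial genome removed, and limma 3.58.1 on log2(TPM + 1), on log2(TPM + 0.1) and on rescaled TPM. Only the last of these limma fits used values scaled to the same sum in each library. Replicates 1 and 2 only was added after the data were seen. Tables and figures were made with Python 3.11.15, pandas 2.3.3, numpy 2.4.6, scipy 1.17.1 and matplotlib 3.10.9.

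All 10 pathway genes are named, with the called genes of each list (the 4 with the smallest adjusted p where more were called), the uncalled kinase, STAT and SOCS genes, and the nearest 3 genes of the 2 pathway genes with the smallest adjusted p. CLCF1, CTF1, IL6R, EPOR, KLF4, KLF5 and genes named as at 0 or not tested were added after their values were seen. Some listed genes are not reported here. The pathway genes and lists were chosen with earlier results of these data known.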

Additional observations from a re-analysis of the deposited data

How the results depend on the processing

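JAK1, SOCS2 and SOCS1 were called in all 16 alternatives across genes. CNTFR, IL11RA, PTPN6, PIK3R1, FOS, PIM1, CEBPD, IRF1, IRF7, ISG15 and OAS1Y were also called in all 16. GBX2 was called in all 15 in which it was tested. Of 131 alternative values of the pathway genes, 110 kept direction and call, 9 lost the call, 8 gained it and 4 changed sign. Of 430 values of the other named genes these counts were 399, 16, 7 and 8. The cause of these changes was not tested. The sign changes were those of uncalled genes: STAT5A ranged from -0.30 to 0.059 over the fits without 1 library, with 0.059 without MC-F7 replicate 3, 0.037 without MT-F7 replicate 1, and 0.0094 and 0.037 with limma on log2(TPM + 1) and log2(TPM + 0.1). These limma fits used the TPM values as deposited, not scaled for library size. With limma on rescaled TPM the value of STAT5A was -0.0030. STAT4 ranged from -0.33 to 0.46, with 0.46 without MC-F7 replicate 3, 0.0053 without MT-F7 replicate 2, 0.47 with replicates 1 and 2 only, and 0.0036 and 0.037 with limma on log2(TPM + 1) and log2(TPM + 0.1). SOCS4 ranged from -0.26 to 0.12, with -0.020 with the replicate block, -0.087 without MC-F7 replicate 2 and -0.26 without MT-F7 replicate 2.

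Leaving out each library gave 1914 (without MC-F7 replicate 2) to 3093 called genes against 3016, 2 to 4 called pathway genes against 3, and 18 to 25 called genes of all lists against 23. The log2 difference of the LIFR to IL6ST ratio was then -0.67 to 0.85, and 5 to 6 pairs of neighbours in the MC-F7 order of levels did not overlap, against 3. With a library left out, non-overlap is easier to reach, so these counts of pairs cannot be compared. With only replicates 1 and 2, 4242 genes and 4 pathway genes were called, IL6ST not among them (adjusted p = 0.11, edgeR).

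The deviations of libraries with the same replicate number correlated at 0.134, 0.0445 and 0.417 for replicates 1, 2 and 3. MC-F7 replicate 1 correlated more with MT-F7 replicate 2 (0.279) than with its own number, so the numbers were not taken as pairs. With a replicate block, 4674 genes (36.0% of those tested) and 5 pathway genes were called, with TYK2 (adjusted p = 0.033, edgeR) and STAT3 (0.015) added. Of the other kinase, STAT and SOCS genes, STAT2 (0.0048) and SOCS6 (0.0025) were added.

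LIF and LIFR had 1 to 12 counts in a library, and JAK2, CTF1, KLF4, SOCS7, GBX2, ISG15 and OAS1Y were under 4 CPM in every library.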
